A study of Sus scrofa with 6 samples.

Results

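Simple keratins and mucosal surface genes were described in 6 keratinocyte clones of the pig (Sus scrofa), 3 grown from conjunctiva and 3 from central cornea. The set was a given list of 7 genes, namely KRT8, KRT18, KRT19, MUC1, MUC4, AQP5 and TCN1. A gene was followed through the probe sets that the array annotation names by that gene alone, and the brightest of them, by its mean over the 6 arrays, stood for the gene. All 7 genes had at least 1 such probe set, 10 probe sets in all, out of 6765 genes and 23999 probe sets measured. KRT8, MUC1 and TCN1 had a second probe set each. The values are log2 values made by robust multi-array average (RMA), so a difference of 1 is a 2-fold difference in signal. Probes differ in brightness, so levels are compared between clones and never between genes.

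The biopsies came from domestic pigs, were taken 6 mm from the limbus according to the labels, and were dissociated with trypsin. The keratinocytes were cultured over a feeder layer of irradiated mouse fibroblasts (the 3T3-J2 line), and a clone was founded by picking 1 cell from such a mass culture. No genotype, drug treatment or animal age is given for either tissue. Each clone thus stands for 1 founder cell grown in culture. The labels name 2 animals without tying the clones to them, so at least 2 of the 3 clones of each tissue share an animal. Nor do they say what a clone number shared by both tissues stands for. In RNA from whole cultures, fewer cells expressing a gene and less of its RNA per cell cannot be told apart.

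Keratins KRT8 and KRT18 are the type II and type I partners that pair into the intermediate filaments of simple, single-layered epithelia. KRT19 is a type I keratin without the usual tail domain, found in simple epithelia and in the conjunctiva. MUC1 and MUC4 are membrane-bound mucins of the wet surface of the eye, AQP5 is a water channel of the corneal epithelium and of secretory glands, and TCN1 encodes haptocorrin, a vitamin B12 carrier secreted at mucosal surfaces. Stratified squamous cells of the ocular surface are built mainly on other keratins, such as KRT5 with KRT14 in the basal layer.

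The arrays had medians of 4.40 to 4.48. The 3' minus 5' signal of the actin control, a measure of RNA integrity, was 0.55 to 1.11 in conjunctiva and 0.46 to 1.07 in cornea on the log2 scale, and that of the GAPDH control was 0.23 to 0.42 in conjunctiva and -0.13 to 0.29 in cornea. Of 16 keratinocyte markers 8 were measured, and SFN, PERP and DSP stood at 12.78, 13.19 and 12.06 in conjunctiva and 12.93, 13.30 and 12.12 in cornea as means of log2 values, while TP63, KRT5, KRT14 and KRT15 were not analysed here. The mean log2 level of the measured keratinocyte markers ran from 8.70 to 8.95 in conjunctival and from 8.56 to 9.52 in corneal clones. ITGA6, also a keratinocyte marker, had a dim probe set (3.57 in conjunctiva and 3.64 in cornea), and CDH3 stood at 4.89 and 5.07. Markers of goblet cells (4 of 10 measured) had a mean level of 4.08 to 4.19 in conjunctiva and 4.14 to 4.32 in cornea. In the same order, melanocyte markers (5 of 8 measured) had 3.85 to 4.09 and 3.86 to 4.21. Leukocyte markers (8 of 10 measured) had 4.11 to 4.27 and 4.08 to 4.27. These lists were near or below the array medians. Above the medians in every clone were fibroblast and keratocyte markers (5.38 to 5.74 and 5.55 to 5.64) and endothelial markers (4.60 to 4.91 and 4.76 to 4.83). Which cells gave these values was not tested.

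The comparison of conjunctival with corneal clones asks which genes tell the tissues apart in culture. None of the 7 genes differed past the threshold, and the main pattern in the data was variation between clones of the same tissue. TCN1 spanned a 64.0-fold range among the 3 corneal clones alone, KRT19 spanned 9.79-fold among conjunctival and 10.2-fold among corneal clones, and KRT18 spanned 7.85-fold among conjunctival and 1.15-fold among corneal clones. By limma, the count past adjusted p 0.05 was 0 of 7, against a background of 0% of all 23999 probe sets. At an unadjusted p under 0.05 it was also 0 of 7, by limma against a background of 2.7% and by the unmoderated test against 3.13%. With the clone number as a block it was 1 of 7 (KRT8, but not by its second probe set), against a background of 5.02%. The adjusted p was 0.9999 by limma for each of the 7 genes.

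**Figure D1:**
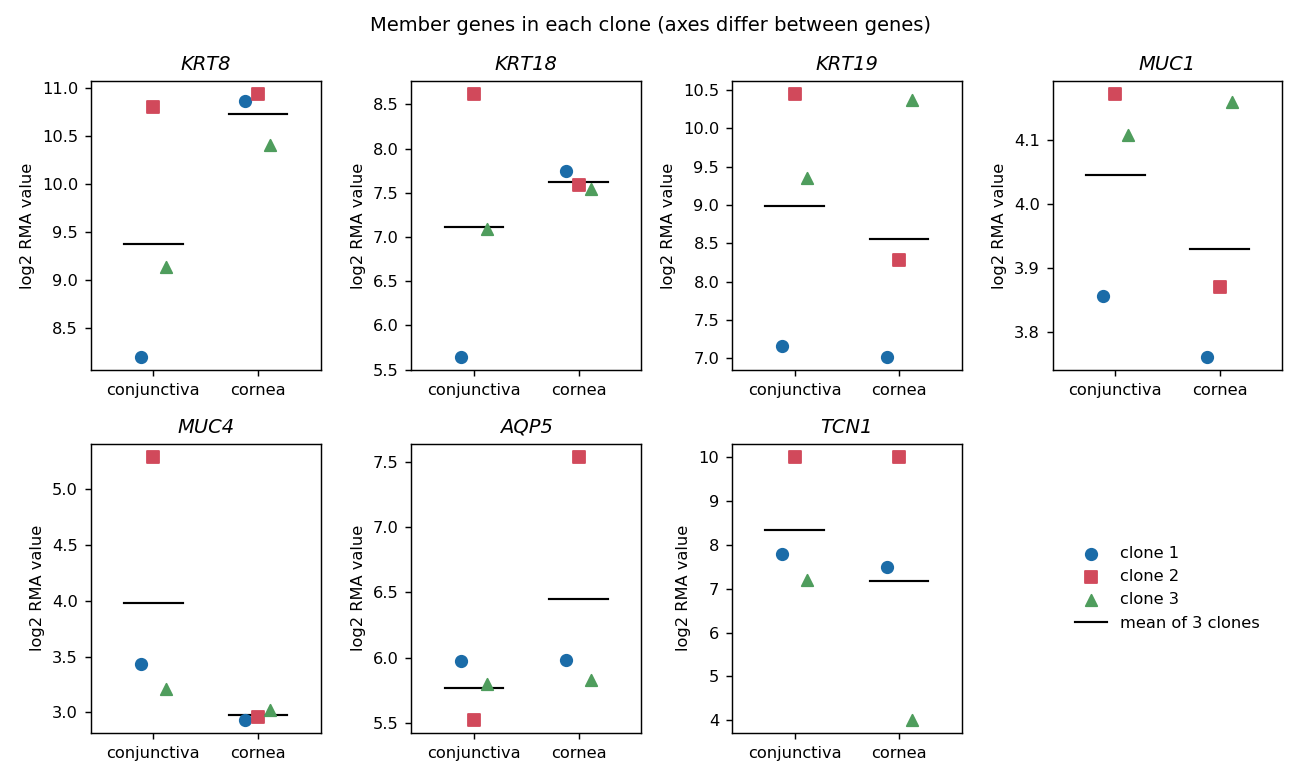
Log2 RMA values of the 7 genes in each clone, with conjunctiva on the left and cornea on the right of each panel. Symbols mark the clone number and lines the mean of 3 clones. The 3 corneal clones lie close together for KRT8, KRT18 and MUC4, and far apart for KRT19 and TCN1.

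KRT8 had log2 values of 8.20, 10.80 and 9.14 in conjunctival clones 1, 2 and 3, against 10.87, 10.94 and 10.40 in corneal clones 1, 2 and 3. All corneal clones were high, conjunctiva 2 reached their range, and conjunctiva 1 and 3 lay below it. The mean was 9.38 ± 1.32 in conjunctiva and 10.74 ± 0.29 in cornea (SD of log2 values, n = 3 each). The difference, conjunctiva minus cornea, was -1.36 (SE 0.61, 95% interval -2.81 to 0.10), which is a 2.56-fold lower mean in conjunctiva. It ran from -2.07 without conjunctiva 2 to -0.77 without conjunctiva 1.

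The second KRT8 probe set gave 7.68, 9.36 and 6.20 in conjunctiva and 7.44, 8.75 and 9.48 in cornea, in the order of clones 1 to 3. Its mean difference had the same sign (-0.81, SE 0.85), but it placed conjunctiva 3 lowest and cornea 1 next to conjunctiva 1. Over the 6 clones the KRT8 probe sets correlated at Pearson's r = 0.55 (exact permutation test, two-sided, p = 0.289, adjusted p = 0.521 over 6 relations between probe sets) and Spearman's rho = 0.20 (p = 0.714, adjusted p = 0.714). Without the 2 clones farthest from the median r was -0.56, and the order of the clones differed between the probe sets.

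KRT18 had log2 values of 5.64, 8.61 and 7.09 in conjunctival clones 1, 2 and 3, against 7.74, 7.58 and 7.54 in the corneal clones. The corneal clones were nearly equal, with a range of 1.15-fold, and the conjunctival clones lay on both sides of them over a range of 7.85-fold. The mean was 7.12 ± 1.49 in conjunctiva and 7.62 ± 0.11 in cornea (SD of log2 values, n = 3 each). The difference was -0.51 (SE 0.67, 95% interval -2.11 to 1.10), and it turned to 0.23 without conjunctiva 1.

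KRT19 had log2 values of 7.15, 10.44 and 9.36 in conjunctival clones 1, 2 and 3, against 7.01, 8.29 and 10.36 in the corneal clones. The tissues overlapped over almost the whole range, and clone 1 was low in both. The mean was 8.98 ± 1.68 in conjunctiva and 8.56 ± 1.69 in cornea (SD of log2 values, n = 3 each), with a difference of 0.43 (SE 1.07, 95% interval -2.12 to 2.98). The sign turned without conjunctiva 2 (-0.30) and without cornea 1 (-0.34).

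KRT8 varied by 6.09-fold within conjunctiva and by 1.45-fold within cornea, but its second probe set varied by 8.98-fold within conjunctiva and by 4.11-fold within cornea. The narrow corneal range of KRT8 thus rests on 1 of its 2 probe sets. KRT18 has 1 probe set here, and KRT19 varied by about the same factor in each tissue. This difference in spread between tissues was not tested. In the RefSeq gene table of assembly Sscrofa11.1, KRT8 and KRT18 are direct neighbours, and KRT15 lies beside KRT19.

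**Figure D2:**
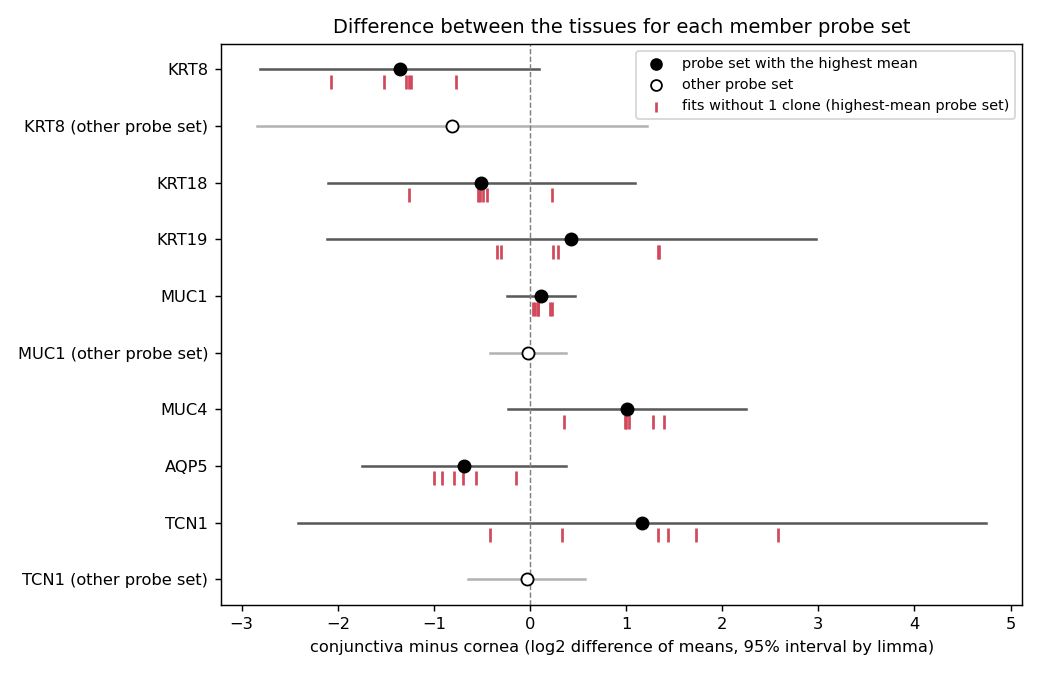
Difference of tissue means for each of the 10 probe sets, conjunctiva minus cornea on the log2 scale, with 95% intervals by limma. Filled points are the probe sets that stand for a gene, open points are second probe sets, and red ticks are fits without 1 clone. Every interval includes 0, and the ticks of KRT18, KRT19 and TCN1 lie on both sides of it.

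Among the membrane mucins, MUC4 was the member whose tissues did not overlap. It had log2 values of 3.44, 5.29 and 3.21 in conjunctival clones 1, 2 and 3, against 2.93, 2.96 and 3.02 in the corneal clones. Conjunctiva 2 was far above all others, and the remaining conjunctival clones were slightly above the corneal ones. The mean was 3.98 ± 1.14 in conjunctiva and 2.97 ± 0.05 in cornea (SD of log2 values, n = 3 each), a difference of 1.01 (SE 0.52, 95% interval -0.23 to 2.24) or 2.01-fold in signal. The corneal values lay below the array medians and were not shown to be above background, so this is a ratio of array signals only. Without conjunctiva 2 the difference was 0.35. Of the 7 genes, 1 was higher in conjunctiva without overlap, against a background of 3.55% of all genes in that direction, and 0 were lower without overlap, against a background of 3.16%. Means at least 2-fold apart were seen for 3 of 7, namely KRT8, TCN1 and, on dim corneal values, MUC4, against 0.887% of all genes, and the genes were listed with earlier results of these data known.

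MUC1 had log2 values of 3.86, 4.17 and 4.11 in conjunctival clones 1, 2 and 3, against 3.76, 3.87 and 4.16 in the corneal clones. The tissues overlapped, and all 6 values lay within a range of 1.33-fold. The difference was 0.12 (SE 0.15, 95% interval -0.24 to 0.47). The second probe set gave 3.49, 3.99 and 3.47 in conjunctiva and 3.69, 3.77 and 3.55 in cornea, a difference of -0.018 (SE 0.17). The MUC1 and MUC4 probe sets had means below the median of all probe sets (4.45). The other 5 genes passed a filter at that median.

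AQP5 had log2 values of 5.97, 5.52 and 5.79 in conjunctival clones 1, 2 and 3, against 5.98, 7.54 and 5.83 in the corneal clones. Cornea 2 alone was high, and the other 5 clones lay together. The mean was 5.76 ± 0.23 in conjunctiva and 6.45 ± 0.95 in cornea (SD of log2 values, n = 3 each), and the difference of -0.69 (SE 0.44, 95% interval -1.75 to 0.37) was -0.14 without cornea 2.

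TCN1 had log2 values of 7.80, 10.004 and 7.21 in conjunctival clones 1, 2 and 3, against 7.50, 10.009 and 4.01 in the corneal clones. Clone 2 was high in each tissue at almost the same level, clone 1 lay in the middle in each, and cornea 3 was far below all other clones. The mean was 8.34 ± 1.47 in conjunctiva and 7.17 ± 3.01 in cornea (SD of log2 values, n = 3 each), with a difference of 1.16 (SE 1.5, 95% interval -2.42 to 4.74) that turned to -0.42 without cornea 3. The second TCN1 probe set was dim (3.19, 3.94 and 3.12 in conjunctiva and 3.49, 3.71 and 3.15 in cornea) and likewise placed clone 2 highest in each tissue. The TCN1 probe sets correlated at r = 0.79 over the 6 clones (exact permutation test, two-sided, p = 0.0417, adjusted p = 0.25 over 6 relations), at rho = 0.83 (p = 0.0583, adjusted p = 0.35), and at r = 0.90 without the 2 clones farthest from the median. Their tissue differences had opposite signs, 1.16 and -0.036.

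The spread between clones was wide for 6 of the 7 genes. The SD of TCN1 over the 6 clones was 2.22 on the log2 scale, larger than that of 99.9% of all genes. It was 1.52 for KRT19, 1.13 for KRT8, 0.98 for KRT18, 0.91 for MUC4 and 0.72 for AQP5, each larger than for at least 96.7% of genes, and 0.18 for MUC1, larger than for 35.9%. This ranking is a description, since earlier results were known when the genes were listed.

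The layout of clone numbers by tissue divides each gene's variation between clones into parts. The clone number has more levels than the tissue, so its share is on average larger even where neither plays a part. For TCN1 the clone number took 79.0% of the sum of squares and the tissue 8.29%, and for KRT19 the clone number took 75.5% and the tissue 2.39%. The tissue share was largest for KRT8 (43.1%) and MUC4 (36.7%), where the clone number took 31.8% and 30.9%. For AQP5 the tissue took 27.2% and for KRT18 7.94%, with the largest part (51.0% and 50.8%) in neither. For MUC1 the tissue took 12.5% and the clone number 68.0%. Over all genes the mean shares were 16.7% for tissue and 51.4% for clone number. Fitting the clone number as a block left all 7 genes short of the threshold, with limma adjusted p from 0.938 to 0.968, and TCN1 then had a difference of 1.16 (SE 0.64). For KRT8 the block gave -1.36 (SE 0.46, 95% interval -2.54 to -0.18, unadjusted p = 0.031 and adjusted p = 0.938 by limma), with same-numbered clones differing by -2.67, -0.14 and -1.27 for numbers 1, 2 and 3. For MUC4 they differed by 0.50, 2.33 and 0.18 (block SE 0.43, limma adjusted p = 0.938). By the probe set that stands for it, KRT8 was thus lower in conjunctiva for all 3 numbers. Its second probe set differed by 0.24, 0.62 and -3.29 for numbers 1, 2 and 3 (block SE 0.77), lower for number 3 only. MUC4 was higher for all 3 numbers, as any pairing of clones gives where the tissues do not overlap.

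The highest value among the 6 clones fell in conjunctiva 2 for 4 of the 7 genes (KRT18, KRT19, MUC1 and MUC4) and in cornea 2 for the other 3 (KRT8, AQP5 and TCN1). Conjunctiva 1 was lowest for KRT8 and KRT18, and cornea 1 was lowest for KRT19, MUC1 and MUC4. Conjunctiva 2 was lowest of all for AQP5. The same counts over all genes were not computed, so these are descriptions. Some highest values were nearly tied with those of clones of other number: KRT8 with cornea 1 (10.94 and 10.87), and KRT19 (10.44 and 10.36) and MUC1 (4.17 and 4.16) with cornea 3. TCN1 was nearly equal in cornea 2 and conjunctiva 2. By the second probe sets KRT8 was highest in cornea 3 (9.48), and MUC1 (3.99) and TCN1 (3.94) in conjunctiva 2.

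The arrays were run on a pair of fluidics stations, each holding both tissues, and the station values differed for several genes. Station 1 held conjunctiva 2, conjunctiva 3 and cornea 1, and station 2 held conjunctiva 1, cornea 2 and cornea 3. The module numbers were 2, 2 and 1 for conjunctival clones 1, 2 and 3, and 3, 3 and 4 for the corneal clones. No module number held both tissues, so module and tissue cannot be told apart. The difference of KRT19 was 2.89 within station 1 and -2.17 within station 2, that of KRT18 0.11 and -1.92, and that of MUC1 0.38 and -0.16, in this order. KRT8 (-0.90 and -2.48), MUC4 (1.32 and 0.44), AQP5 (-0.32 and -0.71) and TCN1 (1.10 and 0.79) kept their sign. Each of these values sets 1 array of a tissue, from clone 1, against 2 of the other, from clones 2 and 3. In these values the tissues thus differ in clone number too, and KRT19 was low in clone 1 of both tissues. With the station as a block no gene passed, and the difference of KRT8 was -1.69, of KRT18 -0.90 and of TCN1 0.95 (limma adjusted p = 0.9999 for all 7).

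Co-variation over the 6 clones was computed for the 21 pairs of the 7 genes, of which 15 had a Pearson r above 0 and 6 below. At an unadjusted p under 0.05 there were 2 by Pearson and 1 by Spearman in exact permutation tests. With 6 clones the smallest two-sided p is 0.00278, which over 21 pairs gives a lone pair an adjusted p of 0.0583 at best, so no pair could pass 0.05 by itself, and none did. Some clones share an animal, and a station holds too few arrays for a correlation within it.

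KRT8 and its filament partner KRT18 correlated at r = 0.89 (exact permutation test, two-sided, p = 0.0333, adjusted p = 0.35) and rho = 0.77 (p = 0.103, adjusted p = 0.432). Without both conjunctiva 1 and 3, the clones farthest from the median KRT8 value, r was 0.23 over the remaining 4 clones, whose KRT8 values lie close together. Without conjunctiva 1 alone r was 0.65, and without conjunctiva 3 alone it was 0.92. As deviations from the tissue means r was 0.97. The second KRT8 probe set correlated with KRT18 at r = 0.47 (exact permutation p = 0.347, adjusted p = 0.521 over 6 relations) and rho = 0.31 (p = 0.564, adjusted p = 0.714), and at r = 0.64 without its 2 farthest clones.

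KRT19 and MUC1 ranked the 6 clones in the same order, with rho = 1 and r = 0.97 (exact permutation test, two-sided, p = 0.00278 for each, adjusted p = 0.0583 for each). Without the 2 clones farthest from the median KRT19 value, cornea 1 and conjunctiva 1, r was 0.95. KRT19 ranged over 10.8-fold in the 6 clones and this MUC1 probe set over 1.33-fold. The 3' minus 5' signal of GAPDH was 0.23, 0.42 and 0.36 in conjunctival clones 1, 2 and 3, against -0.13, 0.25 and 0.29 in the corneal clones. It was thus lowest in cornea 1 and highest in conjunctiva 2, as KRT19 and MUC1 were. Its whole order of clones was theirs except that cornea 3 and conjunctiva 3 changed places. The actin signal was also lowest in cornea 1 (0.46) but highest in conjunctiva 3 (1.11). The part of RNA integrity in the co-variation of KRT19 and MUC1 was not tested. The second MUC1 probe set correlated with KRT19 at r = 0.28 (exact permutation p = 0.603, adjusted p = 0.723 over 6 relations) and rho = 0.26 (p = 0.658, adjusted p = 0.714), and at r = -0.41 without its 2 farthest clones, and with the first MUC1 probe set at r = 0.12 (p = 0.808, adjusted p = 0.808) and rho = 0.26 (p = 0.658, adjusted p = 0.714), and at r = -0.45 without the 2 farthest clones.

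KRT19 did not follow KRT8 and KRT18 closely. It correlated with KRT18 at r = 0.56 (exact permutation p = 0.267, adjusted p = 0.764) and rho = 0.26 (p = 0.658, adjusted p = 0.919), and with KRT8 at r = 0.28 (p = 0.564, adjusted p = 0.764) and rho = -0.086 (p = 0.919, adjusted p = 0.919). Without the 2 clones farthest from the median of the other keratin, these r were -0.53 and -0.63. The second KRT8 probe set correlated with KRT19 at r = 0.49 (exact permutation p = 0.311, adjusted p = 0.521 over 6 relations) and rho = 0.60 (p = 0.242, adjusted p = 0.714), and at r = 0.95 without its 2 farthest clones. The other 17 pairs had r from -0.49 to 0.51, with adjusted p of at least 0.642, and rho from -0.77 to 0.60, with adjusted p of at least 0.432. The lowest rho was that of AQP5 with KRT19, with MUC1 and with MUC4 (-0.77 each, exact permutation p = 0.103), where r was -0.34, -0.49 and -0.46.

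**Figure D3:**
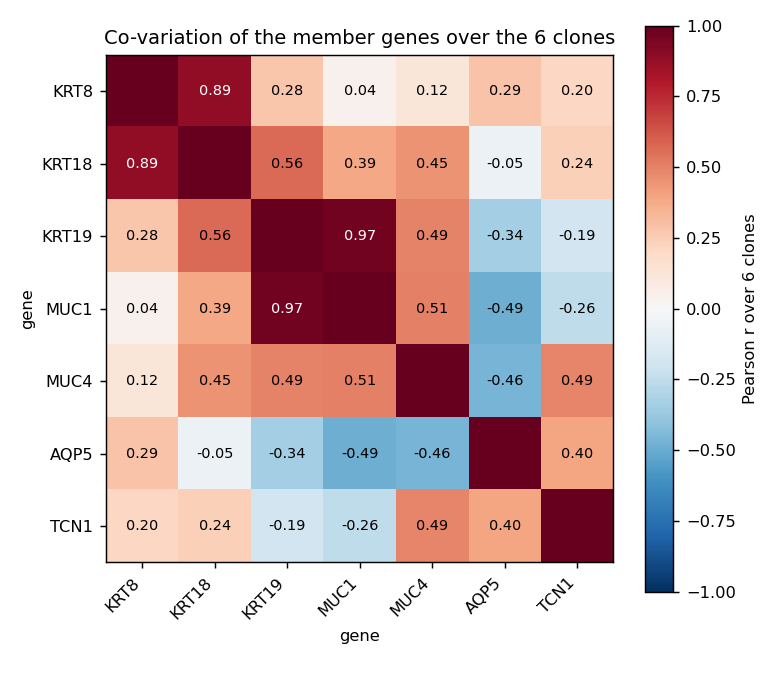
Pearson r over the 6 clones for the 21 pairs of genes, from -1 in blue to 1 in red. KRT8 with KRT18 (0.89) and KRT19 with MUC1 (0.97) have the highest r, and with 6 clones no lone pair could pass an adjusted p of 0.05.

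**Figure D4:**
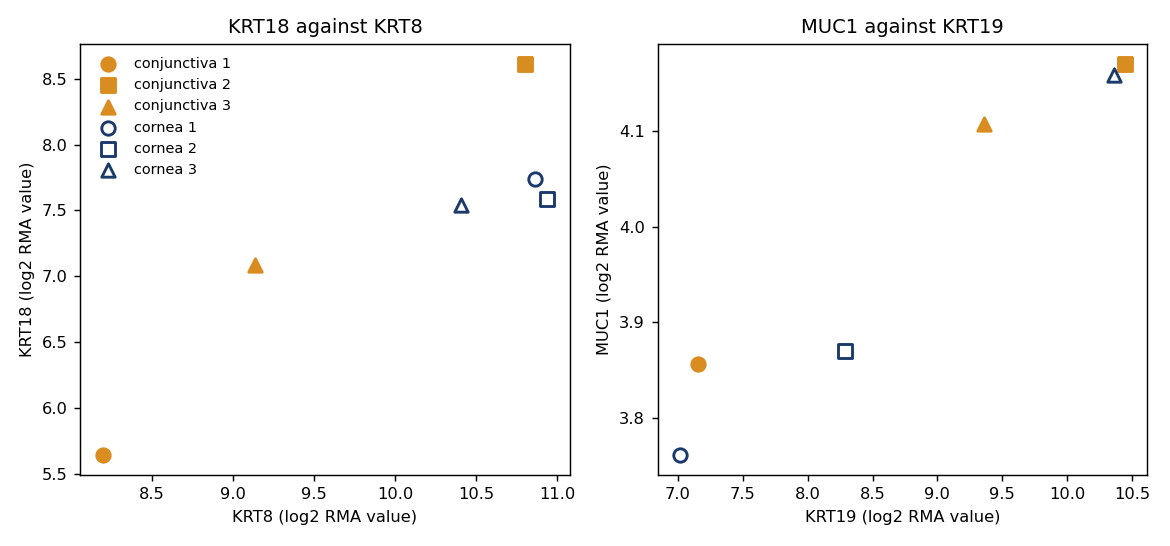
KRT18 against KRT8 on the left and MUC1 against KRT19 on the right, as log2 RMA values of each clone, with conjunctiva filled and cornea open. The corneal clones cluster on the left plot, where conjunctiva 1 and 3 lie apart. The MUC1 axis of the right plot covers 1.33-fold.

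The genes whose profile over the 6 clones was most like each of the 7 were taken by Pearson r from the 541 other genes with an SD of at least 0.5. Being the highest of 541, these r are descriptions. For KRT8 they were TIMP3, a metalloproteinase inhibitor (0.95), ARHGDIB (0.82), and SCIN, an actin-severing protein (0.80). For KRT18 they were TIMP3 again (0.89), the glycosyltransferase MGAT5 (0.86) and ECHDC2 (0.85).

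KRT19 and MUC1 shared their 3 most similar genes, SMIM22, the RNA-binding protein gene HNRNPL and the ADP-ribosyltransferase gene PARP3, at 0.98, 0.97 and 0.95 with KRT19 and 0.97, 0.95 and 0.94 with MUC1. Since KRT19 and MUC1 ranked the clones alike, this sharing adds nothing to their own correlation. SMIM22, which encodes a small membrane protein, had log2 values of 4.61, 9.44 and 7.96 in conjunctival clones 1, 2 and 3, against 4.95, 5.49 and 8.89 in the corneal clones. Conjunctiva 2 and 3 and cornea 3 were thus high for SMIM22, as they were for KRT19, and the tissues overlapped.

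For MUC4 the most similar genes were FAM3D, which encodes a secreted protein (0.99), the basement membrane collagen gene COL15A1 (0.98) and SPP1, which encodes osteopontin (0.97). Their rho with MUC4 was lower, at 0.83, 0.60 and 0.83 in this order. SPP1 had log2 values of 4.14, 7.60 and 4.56 in conjunctival clones 1, 2 and 3, against 3.59, 3.84 and 4.52 in the corneal clones, so conjunctiva 2 alone was high there as well. For AQP5 they were the junction gene JAM3 (0.97), the chromatin organiser SATB1 (0.97) and CFD, complement factor D (0.96), all highest in cornea 2. Their rho with AQP5 was 0.71, 0.54 and 0.60 in this order. In every clone but cornea 2, JAM3 (3.60 to 3.98) and SATB1 (3.10 to 3.42) lay below the median of all probe sets (4.45). For TCN1 the most similar genes were the calcium-binding protein gene S100A4 (0.97), the phospholipase gene PLA2G16 (0.97) and LACC1 (0.96). S100A4 had log2 values of 9.51, 10.58 and 9.69 in conjunctival clones 1, 2 and 3, against 9.86, 10.84 and 7.44 in the corneal clones. As for TCN1, cornea 3 was the lowest clone for S100A4.

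The wider groups to which these genes belong were compared in the same way, and no listed gene passed limma's adjusted p of 0.05. Most of these differences depended on single clones. Apart from the keratinocyte markers, 21 genes are named from the lists. Of these, 19 moved by over 1.5 times or changed sign when 1 clone was left out. All 8 measured keratinocyte markers did so too. The share over all genes was not computed, so these counts do not set the named genes apart from others. Over all genes 3622 were higher and 3143 lower in conjunctiva, with a median difference of 0.014 on the log2 scale and 0 past the threshold. The 7 genes themselves split 4 higher to 3 lower, with a median of 0.12.

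Only KRT8, KRT18 and KRT19 of the 7 listed simple-epithelium keratins were measured (1 higher and 2 lower, median -0.51). The median was 0.23 without conjunctiva 1 and -1.25 without conjunctiva 2. As a mean over these genes, conjunctival clones 1, 2 and 3 deviated by -1.73, 1.22 and -0.20 on the log2 scale from the 6-clone mean, and corneal clones 1, 2 and 3 by -0.19, 0.20 and 0.70. Of 22 stratified-epithelium keratins 3 were measured, all lower in conjunctiva, with a median of -0.26. Their mean deviated by 0.39, -1.08 and -0.64 in conjunctival and by 0.47, 1.17 and -0.31 in corneal clones. By these means conjunctiva 2 was highest for the simple and lowest for the stratified keratins, but not gene by gene, since KRT8 was highest in cornea 2, KRT10 lowest in conjunctiva 1 and KRT2 lowest in conjunctiva 3.

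KRT1, a keratin of differentiating keratinocytes, had log2 values of 9.02, 4.57 and 6.34 in conjunctival clones 1, 2 and 3, against 8.76, 11.05 and 6.88 in the corneal clones. The tissues overlapped, and the difference was -2.25 (SE 1.37). KRT10, its filament partner, differed by -0.26 (SE 0.10, limma adjusted p = 0.9999) without overlap, and KRT2 by -0.14, a sign that turned without conjunctiva 3. Keratin filament linkers and junction genes split 2 higher to 4 lower of 6 measured (median -0.07), with the filament protein VIM at 0.51, the linker DST at 0.44 (0.035 without cornea 3) and the junction protein JUP at -0.20. The sign of JUP turned without conjunctiva 3 or without cornea 1, and 1 of the 2 other DST probe sets had the opposite sign.

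Of 12 measured mucin and glycocalyx genes 7 had higher and 5 lower means in conjunctiva (median 0.03). FUT2, a fucosyltransferase that puts blood group sugars on mucosal glycans, had log2 values of 3.42, 5.34 and 4.77 in conjunctival clones 1, 2 and 3, against 3.42, 3.42 and 3.53 in the corneal clones. Conjunctiva 2 and 3 were above all corneal clones and conjunctiva 1 was level with them, and the difference of 1.06 (SE 0.45) did not pass. GALNT7, a transferase that adds sugars to mucin-type glycopeptides, differed by -0.47 (SE 0.19), and LGALS9, a galectin, by 0.43 (SE 0.31, and 0.07 without conjunctiva 2).

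Of 12 measured aquaporins and ion transport genes 5 had higher and 7 lower means in conjunctiva (median -0.05). SCNN1B, a subunit of the epithelial sodium channel, was at 5.31, 5.02 and 5.27 in conjunctival clones and 5.84, 5.93 and 5.44 in corneal clones. Its tissues did not overlap, and the difference was -0.54 (SE 0.16, limma adjusted p = 0.9999). The glycerol and water channel AQP3 differed by 0.49 (SE 0.41, and 0.10 without cornea 3), and the sodium pump subunit ATP1B1 by 0.40, a sign that turned without conjunctiva 2 and in its other probe set.

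Of 14 measured mucosal secreted and defence genes 9 had higher and 5 lower means in conjunctiva (median 0.06). S100A9, a calcium-binding defence protein, had log2 values of 12.82, 13.27 and 11.26 in conjunctival clones 1, 2 and 3, against 9.94, 13.07 and 9.11 in the corneal clones. Clone 2 was highest for S100A9 in each tissue, as it was for TCN1. The difference of S100A9 was 1.74 (SE 1.05), that of its partner S100A8 0.56 (SE 0.54, 0.034 without cornea 3 and 1.18 without cornea 2), and that of the protease inhibitor SLPI 0.71 (SE 1.09, and -0.11 without conjunctiva 1). As a mean over this list, which includes TCN1, conjunctival clones 1, 2 and 3 deviated by 0.00056, 0.66 and -0.21 from the 6-clone mean and corneal clones by -0.20, 0.45 and -0.70.

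Of 9 measured cobalamin genes, TCN1 included, 5 had higher and 4 lower means in conjunctiva (median 0.05). After TCN1 the largest differences were -0.24 (SE 0.16) for the plasma carrier TCN2, -0.22 for MMAB and -0.17 for ABCD4 (-0.0048 without cornea 2). Epithelial junction and identity genes split 8 to 7 of 15 measured (median 0.02), with the transcription factor ELF3 at 0.66 (SE 0.73, and 0.053 without cornea 3), the claudin CLDN7 at -0.60 (SE 0.47, and -0.044 without conjunctiva 3) and the membrane protease ST14 at 0.53 (SE 0.23).

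**Figure D5:**
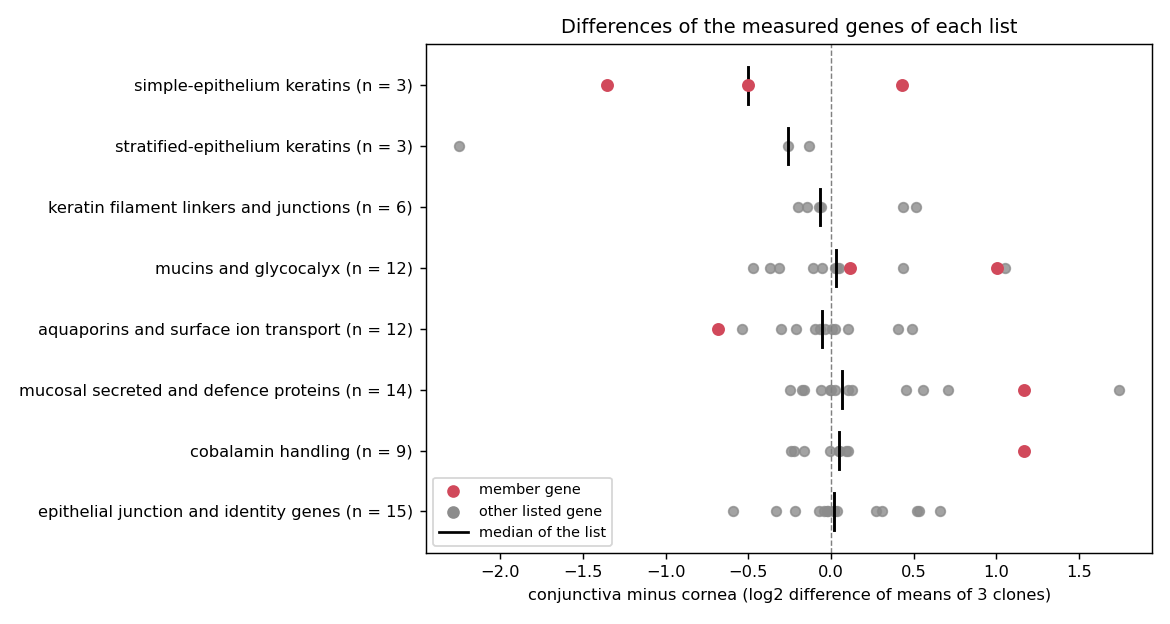
Conjunctiva minus cornea on the log2 scale for each measured gene of 8 lists, with the 7 genes in red, other genes in grey and the list median as a black bar. TCN1 appears in the lists of secreted and of cobalamin genes. The medians lie between -0.51 and 0.06.

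Markers of other cell types split as follows in conjunctiva against cornea. Goblet and secretory markers were higher for 1 and lower for 3 (median -0.12), fibroblast and keratocyte markers higher for 2 and lower for 8 of the 10 measured (-0.11), melanocyte markers higher for 0 and lower for 5 (-0.07), leukocyte markers higher for 3 and lower for 5 (-0.10) and endothelial markers higher for 2 and lower for 6 (-0.12). The 8 measured keratinocyte markers were all lower (median -0.16), with COL17A1 at -1.20 (SE 0.70, and -0.38 without cornea 1), TRIM29 at -0.38 and CDH3 at -0.18 (0.043 without cornea 2), and 0 passed. The sign of 5 of the 8 (ITGA6, SFN, DSP, JUP and CDH3) turned when 1 clone was left out. Fibroblast and keratocyte markers had a mean log2 level of 5.38 to 5.74 in conjunctiva and 5.55 to 5.64 in cornea, with the highest value in conjunctiva 2, which was also highest for MUC4, KRT18 and KRT19. Its part in these values was not tested.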

How the data were processed

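Each of the 6 clones had its RNA amplified, biotin-labelled and run on a porcine Affymetrix array. The log2 values deposited by the authors came from RMA, according to the submitters' processing notes. RMA removes background, makes the arrays' distributions equal and summarises each probe set as a single value, so a shift common to all genes cannot be seen. The RMA version is not given in the sources used here. Fluidics station and module numbers came from the array run files, which also carry a project field naming an irradiation time course that the labels do not mention.

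From the log2 values, 124 control probe sets were left out and 23999 fitted with limma 3.58.1 in R 4.3.3 (conjunctiva minus cornea, two-sided, Benjamini-Hochberg over all probe sets, no filter on low values). The fit was tested on simulated data. The annotation gave 1 gene symbol for 10069 probe sets and several for 198. Correlations used exact permutation over 6 clones with scipy 1.17.1. For arrays, their number limits the precision.

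The members and lists were chosen with earlier results of these data known. Text genes were the 7 members, the 3 other genes of each list with the largest difference, the 3 genes most alike each member and keratinocyte markers. Across probe sets, the deviations of conjunctival and corneal clones from their tissue means correlated at r = 0.354 for number 1, 0.169 for number 2 and 0.349 for number 3. No clones of unlike number were compared in this way, so these values cannot show that a shared number has a meaning. What a shared number stands for is not stated in the labels, and the clone number was fitted as a block for that reason. The labels name separate clones but 2 animals, so p-values measure the spread between clones, not between animals. Alternatives were limma's trend and robust options, an unmoderated test, a filter at the median, array median centring, each clone left out, station as a block and other probe sets. The fits within a station and with the module as a random block (statmod 1.5.0) were added later, with the data already seen. The fit with the module cannot separate module from tissue, since no module number held both tissues.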

Additional observations from a re-analysis of the deposited data

How the results depend on the processing

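The count of probe sets past adjusted p 0.05 was 0 in 14 of 15 alternatives and 2 with limma's trend and robust options, neither of them among the 7 genes. It was 0 with the clone number as a replicate block (smallest limma adjusted p = 0.108, with 1204 at an unadjusted p under 0.05) and 0 in each fit without 1 clone. No difference of the 7 genes passed in any alternative. Those of KRT8, MUC4 and AQP5 kept their sign in all alternatives run (fits without 1 clone -2.07 to -0.77, 0.35 to 1.39 and -0.998 to -0.14), while without 1 clone KRT18 ran from -1.25 to 0.23, KRT19 from -0.34 to 1.35 and TCN1 from -0.42 to 2.58. Signs also turned within station 1 for KRT18 (0.11), within station 2 for KRT19 (-2.17) and MUC1 (-0.16), and in the other probe set for MUC1 (-0.018) and TCN1 (-0.036); MUC1 and MUC4 had no value under the filter on low values. The cause was not tested, and within a station the tissues differ in clone number too. The median of the simple keratins ran from -1.25 to 0.23 without 1 clone and was 0.11 within station 1. Medians of the 7 other lists lay between -0.32 and 0.18 without 1 clone, and 4 of them turned sign in at least 1 such fit. List medians moved within station 2 for simple keratins (-2.17), filament linkers (0.55) and aquaporins and ion transport (-0.23). Under the filter, with fewer genes, those of stratified keratins (-1.26) and of aquaporins and ion transport (-0.30) moved. There the median of secreted and defence genes rose to 0.50 from 0.06 in the main fit. That of mucins turned sign under the filter (-0.054). Within station 2 smaller medians also turned sign, those of stratified keratins (0.06), mucins (-0.15), secreted genes (-0.10) and cobalamin genes (-0.04). Within station 1 those of junction and identity genes (-0.09) and of aquaporins and ion transport (0.002) turned. The count of gene pairs past adjusted p 0.05 was 0 in every setting run, which says nothing of stability, as a lone pair could not pass; the smallest adjusted p was 0.0583 by Pearson and by Spearman, 0.35 after array median centring and 0.408 over the mean of probe sets. With 5 clones or with deviations only r was computed. The correlation of KRT8 with KRT19 turned by Spearman (-0.086), without the 2 farthest clones (-0.63) and in fits without 1 clone (-0.27 to 0.62), and that of KRT18 with KRT19 without the 2 farthest (-0.53). Dim probe sets, such as those of MUC1 and MUC4, limit what a small difference can show.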
